A study of Mus musculus with 12 samples.

Results

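Malat1, Neat1 and Gas5 are 3 long noncoding RNA genes of the 37675 genes listed for the mouse testis during the first wave of spermatogenesis. They were found by gene symbol through their Ensembl identifiers, and they were chosen by their levels in these mice, their RPKM and counts at each age, so their own values are described here and not tested. Whole testes were taken from C57BL/6NHsd mice, an unmodified inbred laboratory strain, at postnatal day (PND) 7, 14, 17, 21 and 28, with 2 mice at each age. The testis holds somatic cells and spermatogonia at PND 7, and spermatocytes, round spermatids and elongating spermatids are added with age, so each library mixes all the cells of the organ. RNA depleted of ribosomal RNA was broken with RNase III and sequenced as 50 bp reads on the SOLiD 4, a short-read platform.

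Malat1 RNA stays in the nucleus, where it gathers in nuclear speckles, the stores of splicing factors. Neat1 RNA is the scaffold of paraspeckles, nuclear bodies built by the proteins SFPQ and NONO on the long Neat1 form. Malat1 and the long Neat1 form end at a structure that RNase P cuts, which leaves a 3′ end without an added poly(A) tail. Gas5 differs: its spliced RNA is translated poorly and degraded by nonsense-mediated decay, it carries the pyrimidine-rich start of translation mRNAs, and its introns carry box C/D small nucleolar RNAs (snoRNAs), which guide the methylation of ribosomal RNA. The spliced Gas5 RNA is also known to bind the glucocorticoid receptor.

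In mm9, Malat1 (ENSMUSG00000092341) lay on the minus strand of chromosome 19 at chr19:5795690-5802671, and its merged exons covered all 6982 bases. Neat1 (ENSMUSG00000092274) lay on the same strand at chr19:5824708-5845478 with 20771 bases of merged exons, 22036 bases from Malat1. Gas5 (ENSMUSG00000053332) lay on the plus strand at chr1:162964553-162968670. Its merged exons, taken over all annotated isoforms, covered 3760 of 4118 bases, or 91.3% of the gene. Its counted exons held 9 snoRNA genes of 60 to 84 bases, which made up 669 bases or 17.8% of the exon length. Only snoRNA genes wholly inside these exons were looked for.

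The sequences of 4 of these snoRNAs are shown because they carried most of the Gas5 count, as given further on. They were read from the plus strand of mm9. Capitals mark the letters TGATGA, the C box near the 5′ end, and CTGA, the D box near the 3′ end, which bind the core proteins of the particle. CTGA was found in 9 of the 9 genes and TGATGA in 7, and SNORD75 and SNORD78 did not hold TGATGA in this exact form.
SNORD75, chr1:162965981-162966042: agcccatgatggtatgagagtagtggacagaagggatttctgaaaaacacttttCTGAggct
SNORD44, chr1:162966813-162966872: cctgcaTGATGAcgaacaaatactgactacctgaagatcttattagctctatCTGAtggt
SNORD79, chr1:162967487-162967570: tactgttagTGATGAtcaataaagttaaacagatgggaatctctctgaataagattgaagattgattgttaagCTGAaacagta
Snord47, chr1:162968213-162968289: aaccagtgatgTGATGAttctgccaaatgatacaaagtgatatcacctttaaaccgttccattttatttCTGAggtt

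Between 3994026 and 13559548 reads were counted per mouse, and a count of 3 was worth 0.209 to 0.726 CPM (counts per 1000000 reads, on library sizes scaled by TMM, the trimmed mean of M values). Each PND 7 mouse was sequenced under 2 barcodes, which were pooled, and the RPKM (the read count scaled to exon length in kilobases and to the reads of the library) of each of the 3 genes differed by 1.02-fold or less between the barcodes of a mouse. The summed marker genes of spermatocytes increased from 218 to 224 CPM at PND 7 to 7340.4 to 7993 CPM at PND 28. The spermatid markers Acrv1, Tnp2, Prm1 and Prm2 were at 0 in both PND 7 mice. PND 14 mouse 1 and PND 21 mouse 1 stood apart from the other mouse of their age in several values of this report, and results that rest on them are given without them. PND 14 mouse 1 also held 219 CPM of spermatid markers and 1469 CPM of Sertoli markers, beside 26.3 and 695 CPM in PND 14 mouse 2. DE genes, as used below, had an adjusted p under 0.05 in edgeR's quasi-likelihood test and a fold change of at least 2. Of 16860 genes tested, 18.9% were DE in PND 7/14, 0.0% in PND 14/17, 10.3% in PND 17/21, 7.66% in PND 21/28 and 55.6% over the whole span, PND 7/28.

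Malat1 was among the most abundant RNAs of the youngest testis. Its mean RPKM was 2013 ± 245 (SD, n = 2) at PND 7, which placed it at rank 45 of the 37675 genes, and 106 ± 30.1 at PND 28, at rank 720. Malat1 counts were 121841 and 105454 in the PND 7 mice, 35965 and 11681 at PND 14, 12140 and 3316 at PND 17, 11628 and 4292 at PND 21 and 7712 and 2981 at PND 28. Scaled for depth, these were 12198 and 14169 CPM at PND 7, 3958 and 1535 CPM at PND 14, 847 and 802 CPM at PND 17, 2775 and 750.3 CPM at PND 21 and 1051 and 688 CPM at PND 28. Both PND 7 mice lay above all 8 older mice. The ages PND 14 and 21, PND 21 and 28, and PND 28 and 17 overlapped, while both PND 14 mice lay above both mice of PND 17 and of PND 28.

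The mean Malat1 CPM was 4.80-fold lower at PND 14 than at PND 7 and 15.2-fold lower at PND 28 than at PND 7. On the log2 scale of edgeR's fit the differences were -2.26 (SE 0.59) for PND 7/14 and -1.74 (SE 0.58) for PND 14/17, and -3.92 (SE 0.63) for PND 7/28. The value of 1.10 (SE 0.57) for PND 17/21 came from 1 mouse: without PND 21 mouse 1 it was -0.13. In the same way the PND 21/28 difference of -1.02 (SE 0.57) became 0.23 without PND 21 mouse 1. Without PND 14 mouse 1, PND 7/14 was -3.13 and PND 14/17 was -0.90. In a whole organ, fewer cells that make Malat1 and less Malat1 RNA in each cell cannot be told apart.

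Neat1 was far less abundant and followed a similar course. Its mean RPKM was 11.2 ± 0.997 (SD, n = 2) at PND 7 and 1.32 ± 0.467 at PND 17, and its rank among the genes moved from 4290 to 12848. Neat1 counts were 2330 and 1500 in the PND 7 mice, 1151 and 364 at PND 14, 449 and 80 at PND 17, 708 and 203 at PND 21 and 506 and 175 at PND 28. These were 233 and 202 CPM at PND 7, 127 and 47.8 CPM at PND 14, 31.3 and 19.4 CPM at PND 17, 169 and 35.5 CPM at PND 21 and 69.0 and 40.4 CPM at PND 28. The PND 7 mice again lay above the 8 older mice, by a narrower margin than for Malat1 because PND 21 mouse 1 reached 169 CPM. The PND 17 mice had the 2 lowest Neat1 levels of all.

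Neat1 differed by -1.32 (SE 0.62) on the log2 scale for PND 7/14, -1.76 (SE 0.64) for PND 14/17, 1.98 (SE 0.65) for PND 17/21 and -0.89 (SE 0.63) for PND 21/28. Over PND 7/28 the difference was -1.98 (SE 0.64), a 3.98-fold lower mean CPM. Leaving out PND 21 mouse 1 moved PND 17/21 to 0.47 and PND 21/28 to 0.64. Leaving out PND 14 mouse 1 moved PND 7/14 to -2.22 and PND 14/17 to -0.89.

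**Figure D1:**
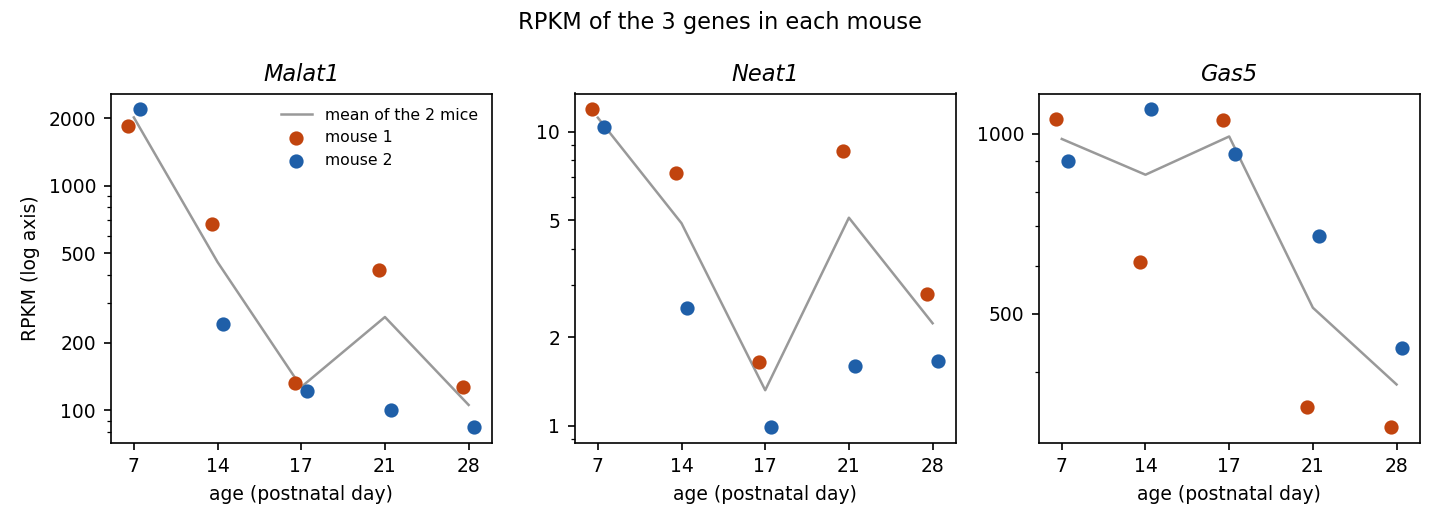
RPKM (log axis) of Malat1, Neat1 and Gas5 against age in postnatal days, with 1 point for each of the 2 mice of an age and a line through their mean. Malat1 lay at 1839.7 and 2186 RPKM at PND 7 and at 673 RPKM or less in every older mouse, and at PND 14 and 21 mouse 1 lay above mouse 2 for Malat1 and Neat1 and below it for Gas5.

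The ratio of the chromosome 19 neighbours differed less between the mice of an age than either gene at PND 14, 21 and 28. It differed more than either gene at PND 7, and more than Malat1 but less than Neat1 at PND 17. Neat1 RPKM was 0.644% and 0.478% of Malat1 RPKM in the PND 7 mice, 1.08% and 1.05% at PND 14, 1.25% and 0.811% at PND 17, 2.05% and 1.59% at PND 21 and 2.21% and 1.97% at PND 28. At PND 21, Malat1 CPM differed 3.70-fold and Neat1 CPM 4.76-fold between the mice, whereas both mice had a ratio above those of all 6 younger mice. The ratio was lowest at PND 7, overlapped between PND 14 and 17 and overlapped between PND 21 and 28. RPKM spreads the Neat1 count over its long form of 20771 bases, and the shares of the short and long Neat1 forms were not analysed here. Over the 10 mice, log2(CPM + 1) of Malat1 and Neat1 had a Pearson r of 0.905. These points share libraries and ages.

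A gene annotated on the other strand of Malat1 held almost no counts. The annotation placed Gm20417, a gene of 425 bases, opposite Malat1 exons. It had 1 count over all 10 mice, where the mean Malat1 density would put 19297 counts on as many bases. The exons of Zbtb37, on the strand opposite Gas5, overlapped Gas5 exons by 0 bases.

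Gas5 as listed held a high and uneven level. Its mean RPKM was 980.4 ± 111 (SD, n = 2) at PND 7 and 381 ± 81.4 at PND 28, at ranks 84 and 193. Gas5 counts were 37658 and 23418 in the PND 7 mice, 17550 and 28705 at PND 14, 52001 and 13561 at PND 17, 5200 and 15593 at PND 21 and 10578 and 8342 at PND 28. In CPM these were 3770.1 and 3146 at PND 7, 1931 and 3773 at PND 14, 3627 and 3281 at PND 17, 1241 and 2726 at PND 21 and 1442 and 1925 at PND 28. Each age overlapped with the next in the order of the means, and the PND 14 mice spanned the values of both PND 7 mice.

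The log2 difference of the whole Gas5 count was -0.28 (SE 0.41) for PND 7/14, 0.28 (SE 0.41) for PND 14/17, -0.80 (SE 0.41) for PND 17/21, -0.24 (SE 0.41) for PND 21/28 and -1.04 (SE 0.41) for PND 7/28. Single mice turned 3 of these: without PND 14 mouse 1, PND 7/14 was 0.09 and PND 14/17 was -0.13, and without PND 21 mouse 2, PND 21/28 was 0.43.

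Nearly all of this count came from the snoRNAs. The summed counts of the 9 nested snoRNA genes were 95.7% and 95.5% of the Gas5 count in the PND 7 mice and between 97.3% and 98.9% in every older mouse, although they cover 17.8% of its exon length. The deposited counts gave such reads to both genes. Among 129 host genes with a counted small RNA inside their merged exons, the nested counts exceeded the host count in 0 in any mouse. The counts of a library also summed to 1.37% to 3.14% more than the number of reads by which its RPKM values were divided, and the Gas5 snoRNAs made up 8.53% to 20.1% of that excess.

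The Gas5 counts outside the snoRNAs followed another course. They were 1623 and 1061 in the PND 7 mice, 435 and 359 at PND 14, 571 and 149 at PND 17, 142 and 186 at PND 21 and 268 and 163 at PND 28. Scaled for depth they were 162 and 143 CPM at PND 7, 47.9 and 47.2 CPM at PND 14, 39.8 and 36.1 CPM at PND 17, 33.9 and 32.5 CPM at PND 21 and 36.5 and 37.6 CPM at PND 28. The mice of an age lay within 1.14-fold of each other, against up to 2.20-fold for the whole Gas5 count. The PND 7 mice were separate from all older mice, and the largest step was the first, with a 3.21-fold lower mean CPM at PND 14.

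On the log2 scale, Gas5 outside the snoRNAs differed by -1.68 (SE 0.20) for PND 7/14, -0.32 (SE 0.20) for PND 14/17, -0.20 (SE 0.20) for PND 17/21 and 0.16 (SE 0.20) for PND 21/28. Over PND 7/28 the difference was -2.04 (SE 0.20), where the whole count gave -1.04. Per length, the part outside the snoRNAs, 3091 bases long, reached 55.4 and 49.7 RPKM in the PND 7 mice but 9.96 and 10.4 RPKM in those of PND 28. This remainder still holds any reads of retained introns outside the snoRNAs, which gene counts do not separate from spliced Gas5 RNA.

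**Figure D2:**
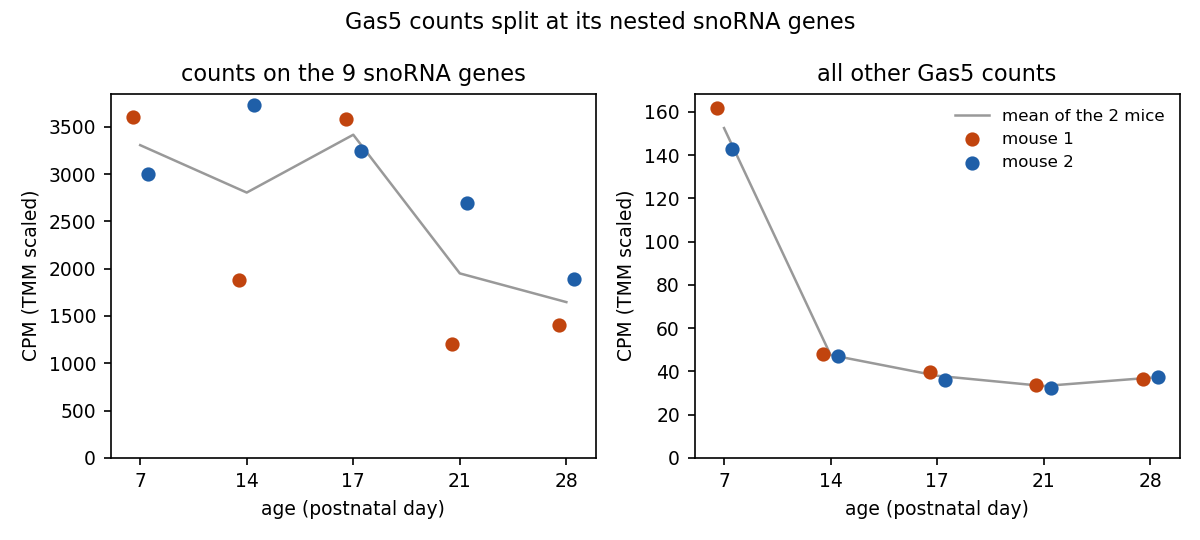
Gas5 counts in CPM against age in postnatal days, split into the counts on its 9 snoRNA genes (left) and all other counts (right), with 1 point per mouse and a line through the mean of the 2 mice. The snoRNA counts of the PND 14 mice were 1883 and 3726 CPM, whereas the other counts were 47.9 and 47.2 CPM and had already left the PND 7 level of 143 to 162 CPM.

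The 9 snoRNAs did not share 1 level or 1 course. SNORD75 held 42.1% of their counts over all mice, Snord47 16.9%, SNORD44 16.6% and SNORD79 6.48%, and SNORD78 held 0.557%. The share of SNORD75 in single mice ran from 29.4% to 51.3%. Reads on SNORD75, SNORD24, SNORD79 and SNORD81 are less certain than the others, because each of these symbols names 2 genes in the annotation. The paper assigned unique reads to genes, so reads that fit both copies may be missing, which was not tested.

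SNORD75 was at 1623 and 1541 CPM in the PND 7 mice, 604 and 1538 CPM at PND 14, 1563 and 1482 CPM at PND 17, 354 and 972 CPM at PND 21 and 522 and 702 CPM at PND 28. Its mean was 2.59-fold lower at PND 28 than at PND 7. SNORD44 was at 691 and 484 CPM at PND 7 and at 282 and 291 CPM at PND 28, 2.05-fold lower. SNORD24 was 2.34-fold lower, with 273 and 192 CPM at PND 7 and 83.2 and 115 CPM at PND 28.

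Others ended close to where they began. SNORD79 was at 113 and 135 CPM at PND 7, 296 and 207 CPM at PND 17 and 74.4 and 172 CPM at PND 28, so that both PND 17 mice lay above both PND 7 mice. SNORD77 was at 23.7 and 17.1 CPM at PND 7 and at 20.2 and 20.8 CPM at PND 28. The fitted log2 differences over PND 7/28 ran from -2.31 for SNORD78, the rarest, through -0.61 for Snord47 and -0.45 for SNORD81 to -0.02 for SNORD79 and 0.00 for SNORD77.

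**Figure D3:**
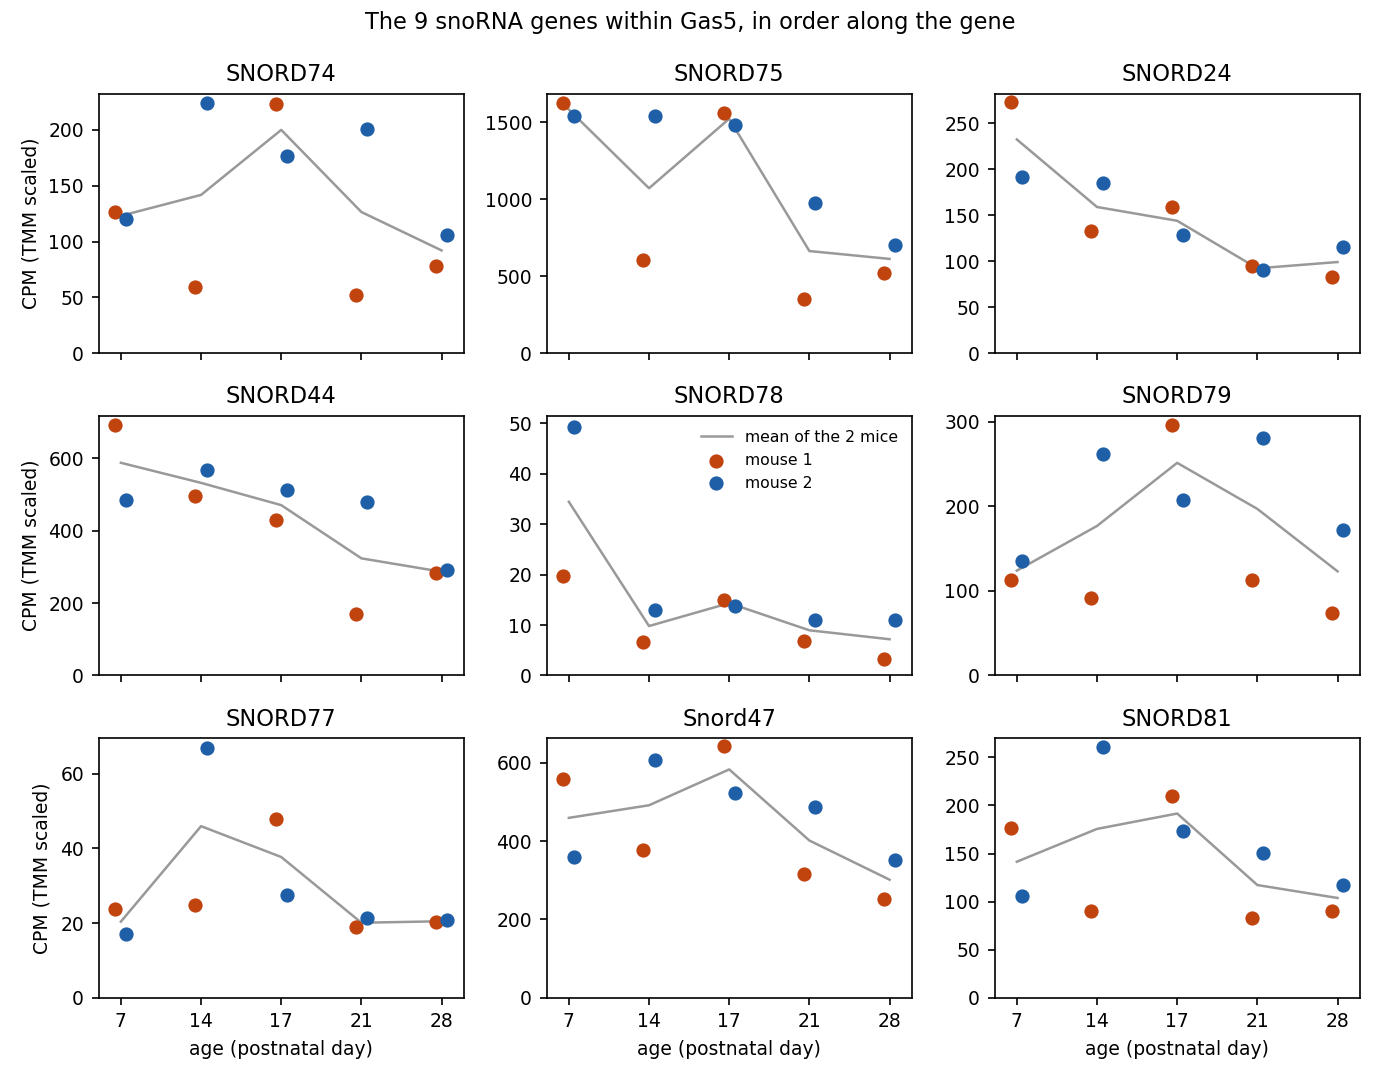
CPM of each of the 9 snoRNA genes within Gas5 against age in postnatal days, in their order along the gene, with 1 point per mouse, a line through the mean and a separate vertical scale from 0 in each panel. SNORD75, SNORD24 and SNORD44 were 2.05- to 2.59-fold lower at PND 28 than at PND 7, SNORD79 and SNORD77 were at similar means at both ages, and at PND 14 mouse 2 lay above mouse 1 in all 9 panels.

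Other snoRNA host genes were counted the same way. Over the genome, 158 host genes held 205 small RNA genes inside their merged exons, and in 39 of them the nested genes held over 50% of the host count. Of 18 host symbols listed as kin of Gas5, 8 were found, and Zfas1 was not among them. Snhg1, which carries 8 snoRNA genes, had 99.0% of its counts on them, and Snhg12 had 96.5% and Snhg7 91.6%. As counted, Snhg1 was at 1690.1 to 1746 CPM at PND 7 and 797 to 1483 CPM at PND 28, and it was not DE in PND 7/28 (log2 difference -0.59, adjusted p = 0.329 in edgeR's quasi-likelihood test).

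Outside its snoRNAs, Snhg1 was at 49.3 to 72.0 CPM at PND 7, 18.3 to 21.0 CPM at PND 14 and 4.85 to 9.0 CPM at PND 28. With nested counts removed from all hosts, a setting added after the values were seen, it fell in PND 7/14 (log2 difference -1.62, SE 0.32, adjusted p = 0.00507 in edgeR's test) and in PND 7/28 (-3.09, SE 0.35, adjusted p = 2.49e-05). Snhg7 (-1.19) and Snhg12 (-1.47) fell in PND 7/14 too, with adjusted p = 0.0465 and 0.0442 in the same test, as did Snhg4 (-1.83, adjusted p = 0.0372), which has no nested gene. In that setting 4 of 8 hosts were DE in PND 7/14, beside 19.1% of all genes, and 6 of 8 in PND 7/28, beside 55.8%. The setting was not run with mice left out, so whether these calls rest on single mice was not tested.

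With the counts as deposited, 1 of 8 hosts was DE in PND 7/14 (Snhg4, log2 difference -1.83, adjusted p = 0.0374 in edgeR's test), which is 12.5% beside 18.9% of all genes, and the median log2 difference was -0.90 beside 0.11 over all genes tested. This call was kept without PND 7 mouse 1 or PND 21 mouse 1 and was lost without any other mouse. Over PND 7/28, Snhg3 rose (1.43, adjusted p = 0.0116) and Snhg11 (-3.96, adjusted p = 0.000544) and Snhg4 (-2.49, adjusted p = 0.00381) fell in the same test. Snhg3 has no nested gene in this annotation and was at 27.4 to 37.1 CPM at PND 7 and 80.5 to 93.6 CPM at PND 28, and its call was lost without PND 7 mouse 2, without PND 28 mouse 1 and with limma on log2(RPKM + 0.1).

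At PND 14 and 21, Malat1 and Neat1 were higher in mouse 1 and the Gas5 snoRNAs in mouse 2. At PND 14, mouse 1 minus mouse 2 in log2(CPM + 1) was 1.37 for Malat1, 1.39 for Neat1, -0.98 for the summed snoRNAs and 0.02 for Gas5 outside them. At PND 21 the values were 1.89, 2.22, -1.16 and 0.06 in the same order. The median over all genes tested was 0.01 at PND 14 and -0.03 at PND 21, and the Malat1 difference exceeded that of 98.0% of genes at PND 14 and of 99.9% at PND 21.

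Mouse 2 was higher for 9 of the 9 snoRNAs at PND 14 and for 8 of 9 at PND 21, where SNORD24 was the exception. At PND 28 the directions were the same, with 0.61 for Malat1, 0.76 for Neat1 and -0.43 for the snoRNAs. They were not at the other ages: the values were -0.22, 0.21 and 0.26 at PND 7 and 0.08, 0.67 and 0.14 at PND 17, in the same order. The whole Gas5 count had an r of 0.154 with Malat1 and -0.226 with Neat1 over the 10 mice, against 0.893 and 0.694 for Gas5 outside the snoRNAs.

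Several other shares differed between the same mice. Small structural RNAs took 4.31% of counts in PND 14 mouse 1 and 8.28% in mouse 2, and 3.01% and 5.75% in the PND 21 mice. Cytosolic ribosomal protein genes took 0.565% and 0.949% at PND 14 and 0.412% and 0.558% at PND 21. Mitochondrial ribosomal RNA took 24.7% and 25.3% at PND 14 but 17.0% and 27.1% at PND 21.

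The share of reads in introns, which gene counts do not hold, was not analysed here. Over all genes tested, the deviations of PND 14 mouse 1 and PND 21 mouse 1 from the mean of their age correlated with r = 0.343, where the other pairs of ages gave -0.17 to 0.119. The part of these shares, or of the intron share, in the levels of Malat1, Neat1 and Gas5 was not tested.

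**Figure D4:**
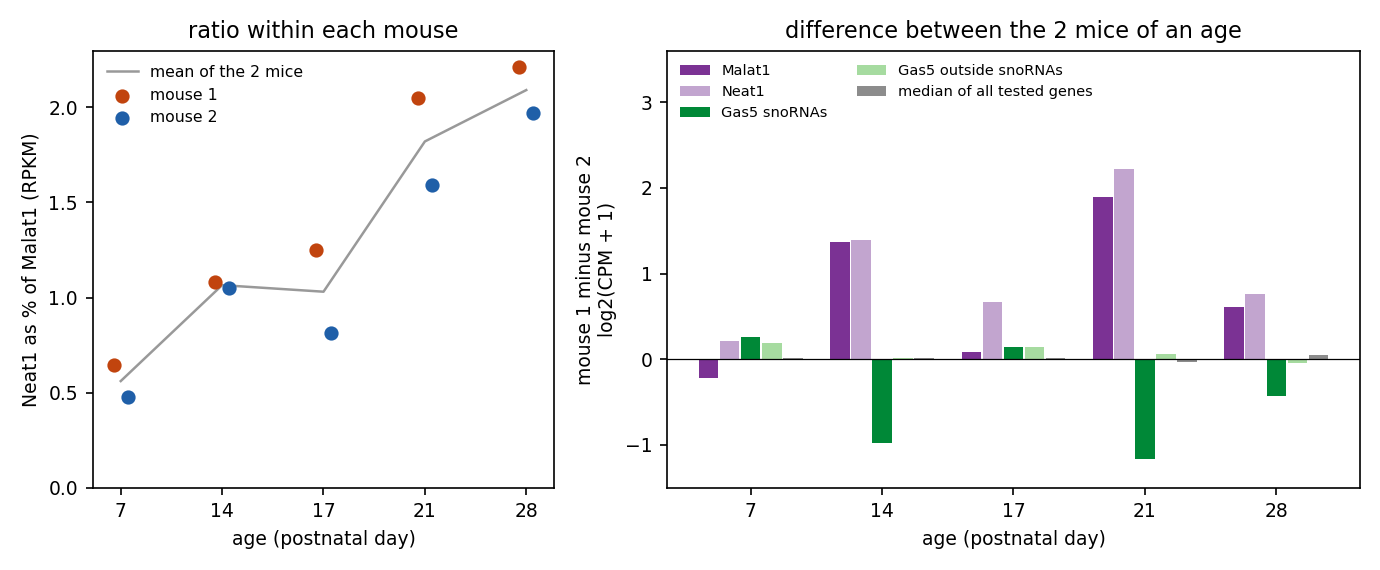
Left, Neat1 RPKM as a percentage of Malat1 RPKM in each mouse against age in postnatal days, with a line through the mean. Right, mouse 1 minus mouse 2 in log2(CPM + 1) at each age, where the bars at PND 14 and 21 point up for Malat1 and Neat1 (1.37 to 2.22) and down for the Gas5 snoRNAs (-0.98 and -1.16), with Gas5 outside the snoRNAs and the median of all tested genes close to 0.

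The genes whose course was most like that of each RNA were ranked by Pearson r of log2(CPM + 1) over the 10 mice among 10364 genes whose mean reached 10 CPM. Among the closest to Malat1 were Cdh23, a cadherin, (0.988), Gm16586 (0.983), Arglu1 (0.978) and Zfp398 (0.975). The 5 ages in order had mean Cdh23 levels of 169.8, 65.4, 25.7, 38.6 and 21.5 CPM. Closest to Neat1 were Pcnt, a centrosome protein, (0.958), Leng8 (0.943), Dock6 (0.939), Erc1 (0.935) and Zc3h7a (0.932).

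For the whole Gas5 count the list was led by its own SNORD75 (0.985), which shares its reads, and by Snora61 (0.958), a snoRNA inside Snhg12. 2810008D09Rik (0.954), Ostc (0.948) and Capza2 (0.943) came next. For Gas5 outside the snoRNAs the closest genes were Socs2, an inhibitor of cytokine signalling, (0.987), Cacna2d1 (0.982), Sel1l3 (0.976), Phldb2 (0.975) and the ribosomal protein gene Rps15a (0.971). Mean Socs2 CPM was 40.3 at PND 7 and between 5.98 and 9.68 at the older ages.

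The genes around Malat1 and Neat1 did not share 1 course. Of 16 genes within 100 kb of Malat1 or Neat1, 12 had enough counts to test. For PND 7/14, 1 of the 12 was DE, beside 18.9% of all genes: Ltbp3, which encodes a protein that binds latent TGF-beta, fell from 60.6 to 74.6 CPM to 6.97 to 14.5 CPM (log2 difference -2.64, SE 0.36, adjusted p = 0.00053 in edgeR's test). Ltbp3 stood at 2.59 to 3.0 CPM at PND 28 (-4.60 in PND 7/28, adjusted p = 6.28e-06).

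In PND 7/28, 7 of the 12 were DE, beside 55.6% of all genes, and 5 of these rose, where 32.2% of all genes did. Ehbp1l1 was at 24.5 to 27.4 CPM at PND 7 and 135 to 161 CPM at PND 28 (log2 difference 2.51, adjusted p = 1.15e-05 in edgeR's test), and Frmd8 was at 16.9 to 18.8 and 59.3 to 86.1 CPM (2.03, adjusted p = 6.82e-05). Around Gas5, 5 of 6 genes were tested, and 0 were DE in PND 7/14, beside 18.9% of all genes. In PND 7/28, 1 of the 5 was DE: Cenpl, a kinetochore protein, rose (1.71, adjusted p = 0.00105), as did 32.2% of all genes. Zbtb37, whose span overlaps the start of Gas5 on the other strand, was at 19.8 to 20.2 CPM at PND 7 and 12.3 to 17.8 CPM at PND 28 (-0.42, adjusted p = 0.322).

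RefSeq promoters, from 250 bases before to 50 after the start in GRCm38.p6, were found for Gas5, at 2 starts, and for Malat1. The Gas5 start nearer its snoRNAs is shown for the first bases of the transcript, and that of Malat1 beside it. Capitals mark GGGCGG, a GC box, and TGACGT, the core of a cyclic AMP response element, on either strand, and the other motifs searched, which are spelled out with their shares further on, were found in neither.
Gas5, chr1:161034916-161035215, plus strand: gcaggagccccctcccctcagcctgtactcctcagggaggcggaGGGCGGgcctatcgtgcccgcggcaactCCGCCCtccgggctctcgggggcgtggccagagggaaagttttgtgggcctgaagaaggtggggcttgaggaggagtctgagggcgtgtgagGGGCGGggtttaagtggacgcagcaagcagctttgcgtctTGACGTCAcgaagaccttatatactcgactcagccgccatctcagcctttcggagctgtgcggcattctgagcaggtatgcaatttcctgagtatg
Malat1, chr19:5802623-5802922, minus strand: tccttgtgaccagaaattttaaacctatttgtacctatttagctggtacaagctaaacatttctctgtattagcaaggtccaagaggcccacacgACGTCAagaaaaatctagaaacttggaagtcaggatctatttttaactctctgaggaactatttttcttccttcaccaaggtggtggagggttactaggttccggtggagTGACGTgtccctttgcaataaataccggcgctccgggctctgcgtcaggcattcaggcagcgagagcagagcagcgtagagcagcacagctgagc

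The Gas5 start shown began with C in a run of 5 pyrimidines, the form of a 5′ TOP, as did 2.51% of the 32851 promoters of the table. The other Gas5 start began with G, and its promoter held GGGCGG 5 times and TGACGT 0 times. In the Gas5 promoter shown, GGGCGG occurred 3 times before the start, beside 0 times in the Malat1 promoter, and 35.7% of promoters held this motif. TGACGT occurred at bases -46 and -44 from the Gas5 start shown, as 2 overlapping matches on opposite strands, and at -155 and -45 from the Malat1 start, and 7.51% of promoters held it. TATAAA was held by 13.6%, CCAAT by 37.4% and CACGTG by 7.15% of promoters. A match describes letters and not a bound factor.

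The partners of these RNAs were taken as 9 lists, with 191 genes tested in all. In PND 7/14, 33 of them were DE, 26 lower and 7 higher, where 5.43% of all genes were lower and 13.5% higher. Over PND 7/28, 88 were DE, 67 lower and 21 higher, where 23.4% of all genes were lower and 32.2% higher. In PND 14/17, 0 of the 191 were DE in edgeR or in DESeq2 and 8 had an unadjusted p under 0.05. Of all genes, 0 were DE there in edgeR and 1 in DESeq2, and 769 had an unadjusted p under 0.05. The PND 7/14 number fell to 20 without PND 7 mouse 2 and to 21 without PND 14 mouse 2. The lists were described by counts and medians and were not tested as sets.

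Paraspeckle proteins moved both ways. Between PND 7 and 14, 3 of 20 were DE, which is 15.0% beside 18.9% of all genes. Sfpq, needed to build paraspeckles, fell from 335 to 359 CPM to 105 to 175 CPM (log2 difference -1.31, SE 0.36, adjusted p = 0.0259 in edgeR's test). Ewsr1 fell by 1.33 (adjusted p = 0.0152), and both calls were lost without PND 7 mouse 2, without PND 14 mouse 2 and with limma on log2(RPKM + 0.1). The Sfpq call was also lost with limma on log2(RPKM + 1) and with library totals. Dazap1, an RNA-binding protein of male germ cells, rose by 1.57 (adjusted p = 0.00473). From PND 7 to 28, 9 of 20 were DE, 45.0% beside 55.6%, with a median of -0.62 beside 0.10 over all genes tested.

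Among paraspeckle proteins, Nono (-2.67, from 32.7 to 41.1 CPM to 5.08 to 6.41 CPM) and Sfpq (-2.18) fell over the whole span, with adjusted p of 3.6e-05 and 0.000482 in edgeR's test. Dazap1 (2.16, adjusted p = 0.000141) and Matr3, a protein of the nuclear matrix, (1.44, adjusted p = 0.00051) rose. Matr3 was at 347 to 369.8 CPM at PND 7 and 945 to 996 CPM at PND 28. Of the 9 DE paraspeckle proteins, 6 were lower, where 23.4% of all genes were, and 3 were higher, where 32.2% were. Paraspeckles themselves are not measured by RNA counts.

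Nuclear speckle factors that passed the test were nearly all lower at the later age. For PND 7/14, 2 of 20 were DE, 10.0% beside 18.9% of all genes: Clk1, a kinase of splicing factors, (-1.56, adjusted p = 0.00144 in edgeR's test) and Srrm1, a splicing coactivator, (-1.48, adjusted p = 0.0365). The Clk1 call held in every alternative run, and that of Srrm1 was lost without PND 7 mouse 2, PND 14 mouse 2 or either PND 17 mouse, with library totals and with limma at both pseudocounts. Across PND 7/28, 10 of 20 were DE, 50% beside 55.6%, with a median of -0.76. Of the 10, 9 were lower, where 23.4% of all genes were DE and lower. Srrm1 (-2.50, adjusted p = 0.000869), Clk1 (-2.42, adjusted p = 1.75e-05) and Srsf5 (-1.91, adjusted p = 0.00461) fell most, and Srpk1, another kinase of splicing factors, rose from 127 to 153 CPM to 391 to 453 CPM (1.59, adjusted p = 0.000116). Clk1 was at 249 to 320.4 CPM at PND 7, 84.9 to 108 CPM at PND 14 and 48.0 to 58.2 CPM at PND 28.

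Genes listed for the 3′ end processing of Malat1 and Neat1 did not change together. The list holds subunits of RNase P and also Elac1, Elac2 and Mettl16, which are not subunits of it. In PND 7/14, 0 of 13 tested were DE in edgeR or in DESeq2, beside 18.9% of all genes in edgeR. An unadjusted p under 0.05 was reached by 2 of the 13. At PND 28 against PND 7, 9 of 13 were DE, 69.2% beside 55.6% of all genes, 6 lower and 3 higher. Among the subunits of RNase P, Rpp38 (2.58, adjusted p = 0.000532 in edgeR's test) and Rpp30 (1.41, adjusted p = 0.00055) rose, and Pop1 (-1.20, adjusted p = 0.0129) and Rpp40 (-1.12, adjusted p = 0.00406) fell. Elac1, a tRNA 3′ endonuclease, fell by 1.39 (adjusted p = 0.014). The Rpp40 call was lost with DESeq2, with RLE scaling and with limma on log2(RPKM + 1). Pop1 was not DE without PND 7 mouse 1 or PND 28 mouse 2, nor Elac1 without PND 7 mouse 2 or PND 28 mouse 2.

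Pop1 was also DE in PND 17/21 (-1.25, adjusted p = 0.0491), a call lost in 12 of 20 alternatives. Of the 191 list genes, 5 were DE in that comparison, beside 10.3% of all genes, and 0 were without PND 21 mouse 1 and 0 without PND 17 mouse 2.

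Among nonsense-mediated decay factors, which degrade spliced Gas5 RNA, the paralogs Upf3a and Upf3b moved apart. Upf3b fell in PND 7/14 from 38.3 to 38.4 CPM to 6.97 to 17.3 CPM (-1.65, SE 0.44, adjusted p = 0.0222 in edgeR's test) and was the 1 DE gene of 14 tested, 7.14% beside 18.9%. It was not DE without PND 7 mouse 2, without PND 14 mouse 2 or with limma on log2(RPKM + 0.1). Upf3a rose in PND 17/21 (1.14, adjusted p = 0.0286), a call lost in 7 of 20 alternatives, limma at both pseudocounts among them. It also rose over PND 7/28, from 18.6 to 23.2 CPM to 117 to 159 CPM (2.72, SE 0.30, adjusted p = 2.24e-05). Over PND 7/28, 5 of 14 were DE, 35.7% beside 55.6%, and Smg5 (1.93, adjusted p = 6.23e-05) and Dhx34 (1.81, adjusted p = 0.000457) were also higher while Upf3b (-1.81, adjusted p = 0.00464) and Magoh (-1.37, adjusted p = 0.00966) were lower. The Magoh call was lost without PND 7 mouse 2 and without PND 28 mouse 1.

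mRNAs of the translation machinery carry the same 5′ TOP as Gas5. Among cytosolic ribosomal protein genes, 14 of 76 tested were DE in PND 7/14, 18.4% beside 18.9% of all genes. Of the 14, 12 were lower and 2 higher, where 5.43% of all genes were lower and 13.5% higher. Rps26 (-2.87, adjusted p = 0.000688 in edgeR's test), Rps21 (-1.64, adjusted p = 0.00233) and Rps20 (-1.35, adjusted p = 0.00498) fell, and the retrogene copies Rpl39l (2.01, adjusted p = 0.00133) and Rpl10l (1.62, adjusted p = 0.000881) rose. From PND 7 to 28, 34 of 76 were DE, 44.7% beside 55.6% of all genes, with a median of -0.87. Of the 34, 30 were lower, where 23.4% of all genes were DE and lower. Rps20 holds a snoRNA gene inside its exons, as does Rps3, which fell in PND 17/21 (-1.27, adjusted p = 0.0449) and was not DE without the nested counts.

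Of 16 other translation mRNAs with a TOP, 2 were DE in PND 7/14, 12.5% beside 18.9%. Pabpc1, the poly(A)-binding protein, rose from 60.2 to 64.4 CPM to 136 to 143 CPM (1.17, adjusted p = 0.00869 in edgeR's test) and Eef1g, an elongation factor subunit, fell by 1.41 (adjusted p = 0.0441), a call lost without any 1 of the 10 mice. In PND 21/28, Eef1d rose from 41.4 to 42.0 CPM to 153 to 171 CPM (1.96, adjusted p = 0.000692), 1 of 2 DE genes of the lists in that comparison, beside 7.66% of all genes. Across PND 7/28, 4 of 16 were DE, beside 55.6% of all genes, and all 4 were higher, where 32.2% of all genes were: Pabpc1 (2.53), Eef2 (1.71), Eef1d (1.39) and Eif3e (1.09), with adjusted p between 1.5e-05 and 0.00159. The Eif3e call was lost with limma at both pseudocounts, with library totals and without PND 28 mouse 1, and the Eef1d call with limma on log2(RPKM + 1).

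The glucocorticoid receptor gene Nr3c1, whose protein Gas5 RNA binds, was at 89.8 to 107 CPM at PND 7 and 37.8 to 47.1 CPM at PND 28 (-1.22, SE 0.25, adjusted p = 0.00152 in edgeR's test). Of 10 genes in its list, 2 were DE in PND 7/14, 20.0% beside 18.9% of all genes: its targets Sgk1 (1.78, adjusted p = 0.0224) and Klf9 (1.11, adjusted p = 0.00589) rose, and the Sgk1 call was lost without PND 7 mouse 2 and without PND 14 mouse 2. At PND 28 against PND 7, 5 of 10 were DE, 50% beside 55.6%, with Klf9 higher (1.40, adjusted p = 0.000312) and Tsc22d3, another target, lower (-2.30, adjusted p = 0.000304). Zbtb16 (-2.06, adjusted p = 0.000593) and Ddit4 (-1.01, adjusted p = 0.0405) were lower too, and Zbtb16 also marks spermatogonia. The Ddit4 call was lost in 9 of 20 alternatives, DESeq2 among them, and that of Zbtb16 in 0.

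Among other long noncoding RNAs, H19, Meg3 and Rian were lower after PND 7. Between PND 7 and 14, 8 of 15 tested were DE, 53.3% beside 18.9% of all genes, and 7 of these were lower, where 5.43% of all genes were lower. H19, an imprinted RNA of growing tissues, fell from 104 to 113 CPM to 8.14 to 12.1 CPM (-3.43, adjusted p = 9.5e-05 in edgeR's test). Meg3 (-2.88, adjusted p = 0.01) and Rian (-2.44, adjusted p = 0.000263), imprinted RNAs of 1 cluster, fell as well, and Nespas rose (1.87, adjusted p = 0.00426). The median was -1.44 beside 0.11, and the list was chosen with the results of these samples known.

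In PND 7/28, 9 of 15 were DE and 8 of these were lower, 60.0% beside 55.6%. H19 (-6.35, adjusted p = 1.3e-06 in edgeR's test), Meg3 (-5.53, adjusted p = 0.000109) and Dnm3os (-5.23, adjusted p = 1.83e-06) were the lowest against PND 7. In PND 17/21, H19 fell again, from 9.42 to 12.1 CPM to 2.62 CPM in both mice (-2.01, adjusted p = 0.0136). This H19 call was lost in 4 of 20 alternatives, each with mice left out. In PND 21/28 Pvt1 rose (1.83, adjusted p = 0.0363), a call lost without either mouse of PND 21 or PND 28.

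**Figure D5:**
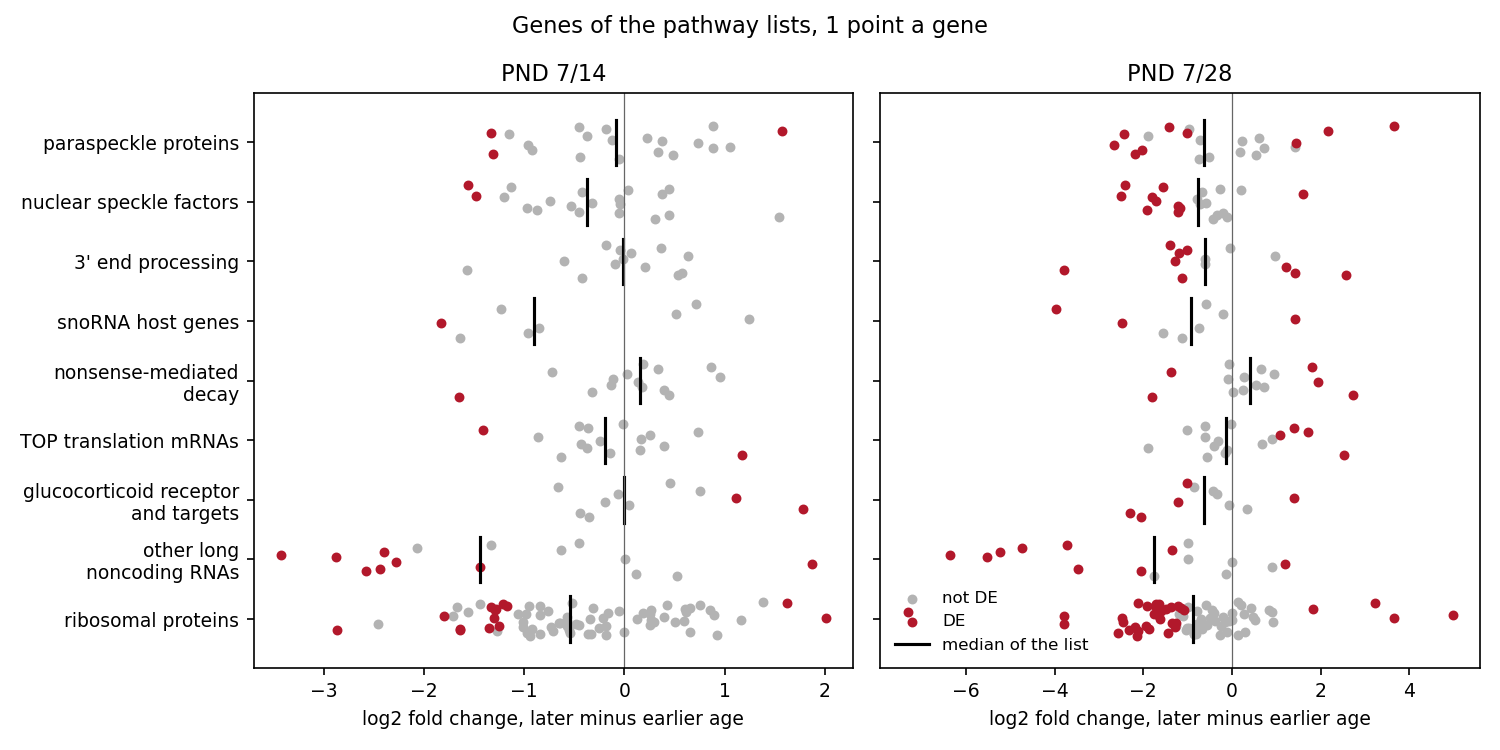
Log2 difference of each gene of the 9 lists in PND 7/14 (left) and PND 7/28 (right), 1 point a gene, with DE genes in red, other genes in grey and the median of each list as a black bar. In PND 7/14 the medians lie between -1.44 for the other long noncoding RNAs and 0.16 for the nonsense-mediated decay factors.

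Markers of somatic cells and spermatogonia moved over the same ages. Over PND 7/28, 7 of 7 tested Sertoli markers were DE and lower, among them Sox9 (-3.13, adjusted p = 0.000166 in edgeR's test), as were 6 of 8 spermatogonia markers, 3 of 5 markers of peritubular myoid cells and 3 of 4 endothelial markers, beside 23.4% of all genes lower. For PND 7/14, 0 of these 24 genes were DE in edgeR or in DESeq2 and 5 had an unadjusted p under 0.05. Of all genes, 18.9% were DE in edgeR in PND 7/14, and 5.43% were DE and lower. The fitted log2 difference was below 0 for 7 of 7 Sertoli markers (median -0.66), 5 of 5 myoid markers (-0.63), 4 of 4 endothelial markers (-0.79) and 6 of 8 spermatogonia markers (-0.25) in that comparison. Summed Sertoli markers were at 1565 to 1824 CPM at PND 7, 695 to 1469 CPM at PND 14 and 337 to 485 CPM at PND 28. Summed Leydig markers were at 259.9 to 280.0 CPM at PND 7 and 859.7 to 1110 CPM at PND 28. In PND 7/28, 3 of 6 rose, where 32.2% of all genes did. These were Insl3, Cyp11a1 and Cyp17a1, with adjusted p of 5.21e-05, 0.00266 and 0.000633 in edgeR's test. Macrophage markers summed to 45.5 to 53.2 CPM at PND 7 and 70.8 to 76.3 CPM at PND 28, and blood genes to 30.4 to 92.3 and 14.5 to 16.1 CPM. The part of cell composition in the levels of the 3 noncoding RNAs was not tested.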

How the data were processed

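The authors removed ribosomal RNA with a RiboMinus kit and aligned the SOLiD reads to mm9 with LifeScope v2.1. They filtered out rRNA, tRNA and repeat sequences and dropped reads that aligned to over 10 places. By the paper's methods, unique reads were then assigned to genes. A raw count of reads on exons was deposited for each of 37675 Ensembl genes. The authors also deposited an RPKM value, the count scaled to kilobases of merged exons and to the counted reads of the library. Use of strand in counting is not given in the sources used here. The authors' comparison and isoform results were not used.

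Gene symbols, exons and nested small RNA genes came from GENCODE M1 (mm9), which held 37310 of the 37675 identifiers. Counts of the 2 barcodes of each PND 7 mouse were summed, which gave 10 mice from 12 libraries. That the 2 mice of an age are separate animals comes from the study's methods. Tests used edgeR 4.0.16 under R 4.3.3 (TMM, filterByExpr, quasi-likelihood tests in 1 fit of all 10 mice, common dispersion 0.0726), with p adjusted by Benjamini-Hochberg over 16860 genes. DE genes had an adjusted p under 0.05 and at least a 2-fold change. A log2 difference is the later minus the earlier age. The study tested RPKM values with limma, which was an alternative here because raw counts were at hand.

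Named genes were the 3 RNAs, the snoRNA genes inside Gas5, genes within 100 kb, the 5 genes with the highest Pearson r, and the DE genes of each list (all if 5 or fewer, otherwise up to 3 in each direction with a mean of at least 10 CPM). Some genes that this rule names are not reported here. The members and lists were chosen with earlier results of these data known. Alternatives were DESeq2 1.42.0, RLE scaling or library totals, no filter on low counts, limma 3.58.1 on log2(RPKM + 1) or log2(RPKM + 0.1), mouse number as a block, no small structural or mitochondrial genes, and leaving out each mouse. After the values were seen, host genes without nested counts, and leaving out PND 14 mouse 1 with PND 21 mouse 1, were added. Scripts were tested on simulated data.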

Additional observations from a re-analysis of the deposited data

How the results depend on the processing

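Removing the counts of nested snoRNAs, an alternative added after the values were seen, moved the log2 difference of Gas5 from -0.28 to -1.68 in PND 7/14 and from -1.04 to -2.04 in PND 7/28. By construction this leaves the part of the exons outside the snoRNAs. The number of DE genes in the lists rose without a filter on low counts to 2 in PND 14/17, 15 in PND 17/21 and 10 in PND 21/28, and with DESeq2 to 8 in PND 17/21 and 6 in PND 21/28, from 0, 5 and 2. In PND 21/28 it was 1 with limma on log2(RPKM + 0.1). The cause was not tested. Leaving out each mouse in turn gave 20 to 42 DE genes in the lists in PND 7/14, 0 in PND 14/17, 0 to 16 in PND 17/21, 1 to 3 in PND 21/28 and 68 to 92 in PND 7/28; the 42 came from leaving out PND 14 mouse 1 and PND 21 mouse 1 together. The log2 differences of Malat1, Neat1 and Gas5 ran over these from -3.13 to -1.75, -2.22 to -0.80 and -0.86 to 0.09 in PND 7/14, from -2.28 to -0.90, -2.31 to -0.88 and -0.13 to 0.82 in PND 14/17, from -0.13 to 1.75, 0.46 to 2.71 and -1.48 to -0.33 in PND 17/21, from -1.68 to 0.23, -1.62 to 0.65 and -0.69 to 0.43 in PND 21/28 and from -4.25 to -3.63, -2.42 to -1.64 and -1.24 to -0.83 in PND 7/28. Scaling by library totals moved the median of all genes from 0.10 to -0.22 in PND 7/28 and from 0.03 to -0.19 in PND 21/28, and turned the direction of none of the 3 RNAs in any comparison.

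With mouse number as a replicate block, 1 list gene was DE in PND 21/28 in place of 2, and the Malat1 difference in PND 7/14 was -2.46. Same-numbered mice of different ages deviated with r from -0.17 to 0.343, the highest for PND 14 and PND 21. The sources used here do not say whether the numbers mark a shared litter or batch. These correlations cannot decide it, and it was not tested.

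With 2 mice per age the exact permutation test of a single value cannot reach 0.05, and outliers within an age were not tested for. The smallest count of the 3 RNAs was 80, for Neat1 in PND 17 mouse 2, so that spread between mice and not counting error limits the values.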
